A study of Homo sapiens with 27 samples.

Results

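The transcripts described here are those of 10 genes of the WNT pathway in 2 triple negative breast cancer cell lines, SUM159 and MDA-MB-231, in which the transcription factor gene ZEB1 was silenced. The genes are the ligands WNT5A, WNT5B, WNT7A and WNT7B, the receptor ROR1, the secreted antagonist DKK1 and its relative DKK3, and the nuclear or feedback genes AXIN2, LEF1 and TCF7. They were picked by name from the 57165 genes of the count table, and because WNT7B was higher in targeted SUM159 cells. The SUM159 values of targeted against No gRNA cells therefore chose the list, and for all 10 genes they are given as a description, with no p-value and with nothing read from the counts of calls. All 10 genes were found in the table.

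RNA was sequenced from 27 libraries in 9 groups of 3. In each line, wild type cells were untransduced, No gRNA cells carried a lentiviral vector for dCas9-KRAB (a cleavage-dead Cas9 fused to a repressor domain) without a guide, and targeted cells carried the same vector with guides against the ZEB1 promoter. Transduced cells were selected with puromycin, which the wild type cells were not said to have received. In SUM159 the targeted groups were gRNA 4 (a single guide) and All gRNA (the pool), and a further set of wild type SUM159 libraries came from the second sequencing run. All MDA-MB-231 libraries came from run 2 and the other SUM159 libraries from run 1, so line and run cannot be told apart except in wild type cells of run 2. Titles and descriptions of the targeted MDA-MB-231 libraries name opposite guide conditions, and the libraries are called set 1 (title gRNA 4) and set 2 (title with the pool) and are assigned to neither. The study's methods describe the replicates as individual clones, and the labels number them as biological replicates.

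The libraries held 15461200 to 21473757 estimated counts. In SUM159, ZEB1 averaged 73.7 CPM (counts scaled to the size of the library) in No gRNA cells, 0.737 under All gRNA and 3.46 under gRNA 4. Its MDA-MB-231 means were 110.1 CPM without guides, 5.33 in set 1 and 4.69 in set 2. The mesenchymal marker VIM averaged 1319 to 4075 CPM over the groups, its lowest mean being that of set 1. In wild type cells of both lines ESR1 was at or below 0.183 CPM and PGR at or below 0.0929 CPM. ERBB2, also expected to be low, was not near 0. It averaged 46.7 and 62.3 CPM in wild type SUM159 of runs 1 and 2, and 45.2 CPM in wild type MDA-MB-231. The claudin-low label was met in SUM159, where CLDN3, CLDN4 and CLDN7 stayed at or below 1.10 CPM in every library, but CLDN4 averaged 66.2 CPM and CLDN7 17.6 CPM in wild type MDA-MB-231 cells. The epithelial adhesion gene CDH1 averaged 17.8 CPM in set 1, 3.00 CPM in set 2 and at most 0.495 CPM in the control groups of either line. In targeted SUM159 cells CDH1 averaged 0.210 CPM with gRNA 4 and 1.87 CPM with All gRNA. The All gRNA libraries had a median of 0.272 CPM and a maximum of 5.10 CPM. The part of these shifts in the WNT values below was not tested.

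WNT ligands are secreted lipid-modified glycoproteins. Canonical ligands bind Frizzled and LRP receptors and stabilise beta-catenin, which then acts with TCF and LEF factors on target genes such as AXIN2 and LEF1, while WNT5A and WNT5B are mostly linked to beta-catenin-independent signalling through receptors such as ROR1. DKK1 blocks the LRP coreceptors and is itself a known target of the pathway, so it works as negative feedback. DKK3 is related to DKK1 in sequence, does not act as a clear LRP blocker, and is often silenced in carcinomas. ZEB1 is a zinc finger repressor that binds E-box sequences in the promoters of epithelial genes.

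Promoter windows from RefSeq (GRCh38.p14, 250 bases before to 50 after a gene's start) were available for 7 of the 10 genes, in 10 windows. WNT7B, DKK3 and AXIN2 had no window. The words CTTTGA and TCAAAG, the core of a TCF/LEF motif on either strand, occurred in the window of 1 member, DKK1, and in 12.9% of all 35116 windows. The 250 bases before the DKK1 start, chr10:52314031-52314280 on the plus strand, are shown because this feedback antagonist had the highest level of the 10 genes and differed most between the lines. Capitals mark the TCF/LEF cores, which begin 149 and 95 bases before the start.
DKK1 promoter: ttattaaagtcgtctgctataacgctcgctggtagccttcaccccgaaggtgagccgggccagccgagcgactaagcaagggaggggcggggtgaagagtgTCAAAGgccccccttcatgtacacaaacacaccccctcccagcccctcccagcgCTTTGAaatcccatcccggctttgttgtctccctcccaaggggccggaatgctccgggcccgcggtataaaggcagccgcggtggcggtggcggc
The E-box words CAGGTG and CACCTG occurred in windows of 3 members, WNT7A, WNT5A and TCF7, and in 20.6% of all windows. A word match is a description of the sequence and does not show that a factor binds there.

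**Figure D1:**
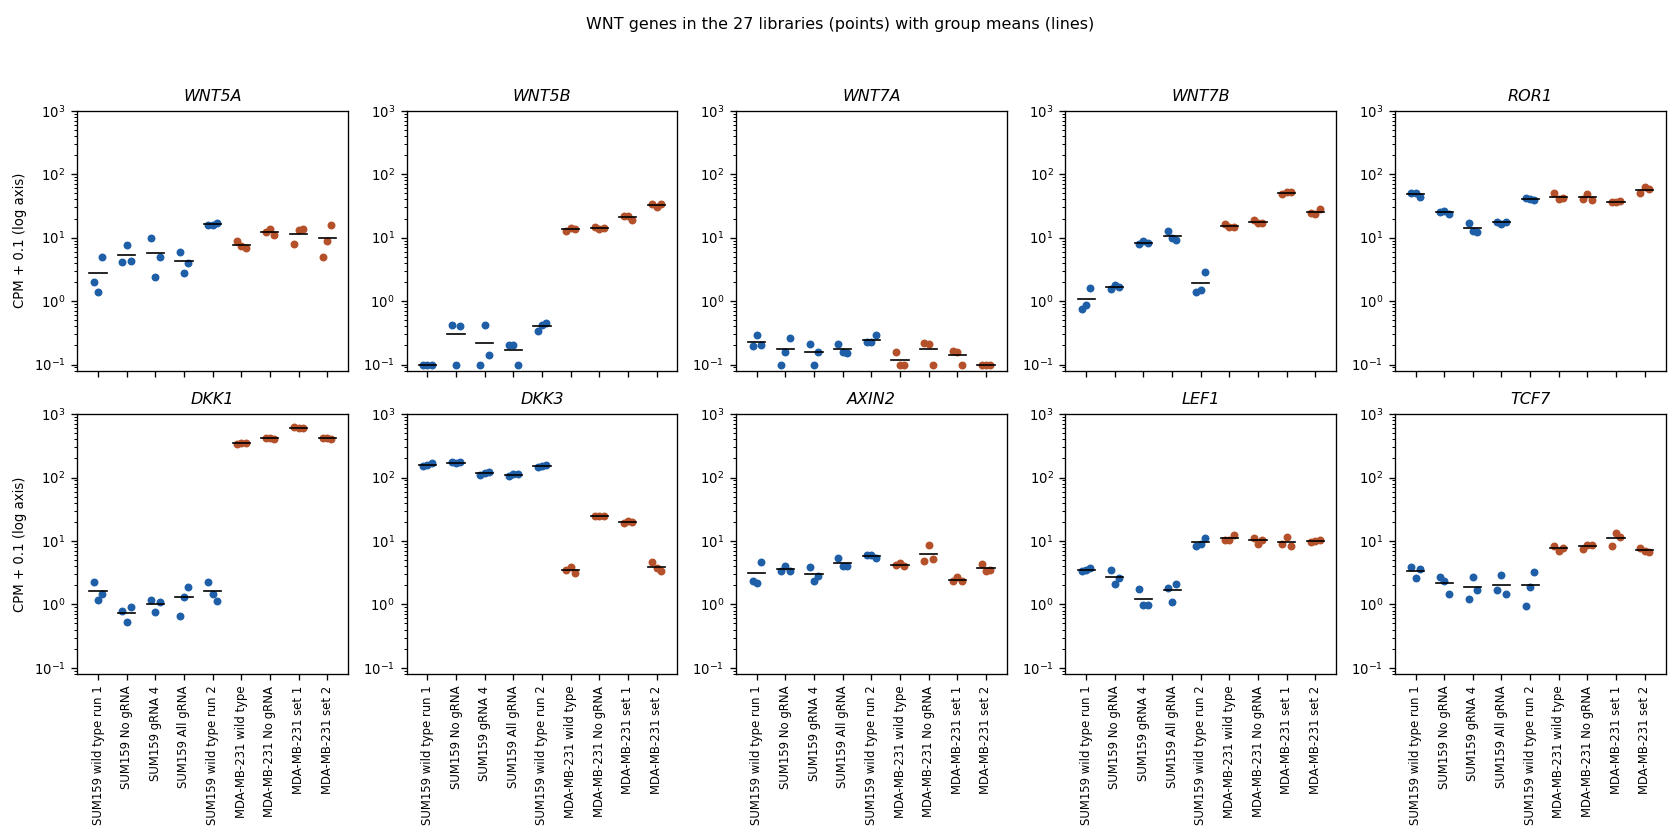
CPM plus 0.1 on a log axis for each of the 10 WNT genes in the 27 libraries (points, blue for SUM159 and orange for MDA-MB-231), with group means as lines. DKK1 and WNT5B lie far higher in every MDA-MB-231 library, DKK3 lies higher in every SUM159 library, and WNT7A stays at the bottom of the axis in all 9 groups.

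The ligand WNT7B (ENSG00000188064, chr22:45920366-45977162, minus strand) is the gene that put this list together. In SUM159 its level was 1.43, 1.71 and 1.56 CPM in the No gRNA libraries, 7.74, 8.86 and 8.05 CPM with gRNA 4, and 12.4, 9.78 and 8.95 CPM with All gRNA. The wild type libraries held 0.656, 0.757 and 1.49 CPM in run 1 and 1.29, 1.42 and 2.79 CPM in run 2. Every targeted SUM159 library was above every control library of the line. As a description of the values that chose it, WNT7B was 6.47-fold higher with All gRNA (log2 fold change 2.69, SE 0.243) and 5.14-fold higher with gRNA 4 (log2 2.36, SE 0.248) than without guides. These folds start from a mean of 1.57 CPM. All gRNA lay above gRNA 4 in every library, but the difference between them, 0.33 on the log2 scale, did not pass the moderated limma test (adjusted p = 0.462).

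MDA-MB-231 libraries were not used to choose WNT7B, and there the ligand started higher and rose again in targeted cells. The No gRNA libraries held 18.7, 16.6 and 16.9 CPM and the wild type libraries 16.1, 14.8 and 14.5 CPM. Set 1 held 49.1, 51.6 and 53.2 CPM, and set 2 held 24.6, 23.2 and 28.0 CPM. None of these groups overlapped. Set 1 was 2.95-fold above No gRNA (log2 1.56, SE 0.0830), which passed limma's TREAT, a test of whether a change is larger than 1 on the log2 scale (adjusted p = 0.00157). Set 2 was 1.47-fold above (log2 0.56, SE 0.0911), which passed the moderated test against 0 (adjusted p = 3.3e-04) and not TREAT (adjusted p = 1). Set 1 and set 2 also differed from each other, by 1.01 on the log2 scale (moderated adjusted p = 7.7e-07, TREAT adjusted p = 1), and both sets are compared with the same No gRNA libraries. Whether the change differed between the lines was not tested.

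In MDA-MB-231, 9 of the 10 genes passed the count filter and WNT7A did not. In set 1, TREAT called 1 of the 9, WNT7B, against 1.47% of all 15721 genes tested, and the moderated test called 5, against 37.8% of all genes. In set 2, TREAT called 1 of the 9, DKK3, against 4.14% of all genes, and the moderated test called 5, against 52.4%. The share of members called in set 2 was close to that of all genes, and nothing about the list is read from either count. In SUM159, 8 of the 10 passed the count filter, and TREAT called WNT7B alone under All gRNA (0.396% of 15147 genes called) and under gRNA 4 (0.39%), the latter a call that no fit with 1 library left out made. The moderated test called 3 under All gRNA (10.8% of all genes) and 4 under gRNA 4 (11%), and nothing is read from the TREAT or the moderated counts in SUM159, because that contrast chose the list. Between All gRNA and gRNA 4, TREAT (0% of all genes) and the moderated test (0.944%) called 0 of the 8 members, as did edgeR and DESeq2, with 0 at an unadjusted TREAT p under 0.05 and 1 at an unadjusted moderated p under 0.05.

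**Figure D2:**
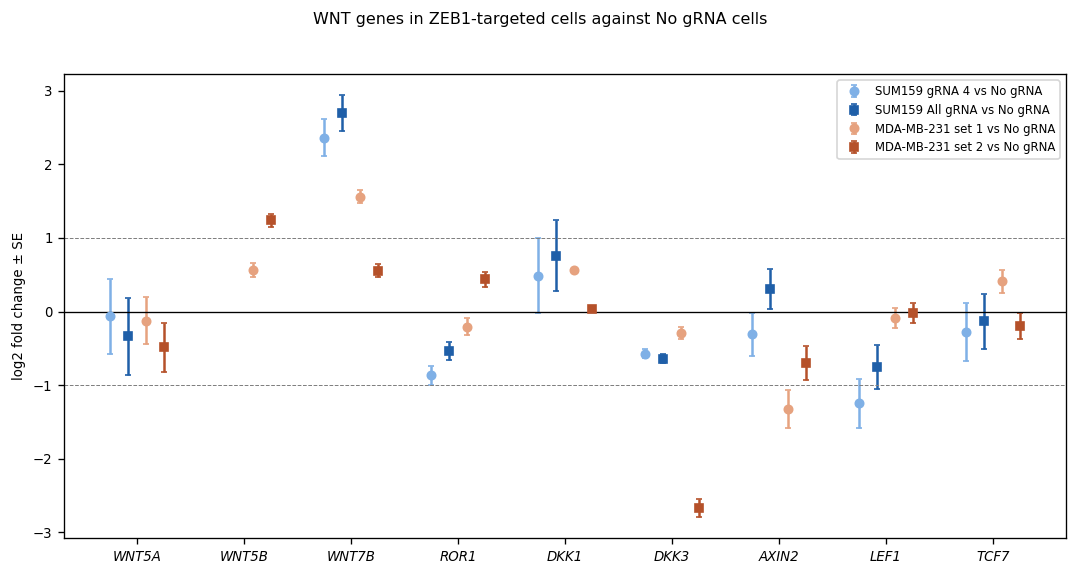
Log2 fold change with its standard error for each WNT gene with enough counts, in targeted against No gRNA cells (SUM159 in blue, MDA-MB-231 in orange), with dashed lines at -1 and 1. WNT7B is above 0 in all 4 comparisons, from 0.56 in set 2 to 2.69 with All gRNA, and DKK3 is below 0 in all 4, from -2.67 in set 2 to -0.30 in set 1.

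The second ligand that rose was WNT5B (ENSG00000111186, chr12:1529891-1647212, plus strand), which in this system was a transcript of MDA-MB-231 cells. Its levels there were 12.5, 14.03 and 13.6 CPM in wild type, 14.4, 13.8 and 14.1 CPM without guides, 21.7, 22.2 and 18.6 CPM in set 1, and 34.0, 30.4 and 34.4 CPM in set 2. Wild type and No gRNA overlapped, and both sets lay above them. WNT5B rose by 0.56 on the log2 scale in set 1 (SE 0.0950, moderated adjusted p = 7.3e-04) and by 1.24 in set 2 (SE 0.0885, moderated adjusted p = 4.3e-07), and neither rise passed TREAT (adjusted p = 1 and 0.176). The order of the sets was the reverse of that of WNT7B, with set 2 above set 1 by 0.68 (moderated adjusted p = 3.6e-05). In SUM159 no library exceeded 0.348 CPM of WNT5B, and the 3 wild type libraries of run 1 held none.

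WNT5A (ENSG00000114251, chr3:55465715-55490539, minus strand), the classical ligand of ROR receptors, varied more between replicates than it did with ZEB1. In SUM159 it ran from 4.05 to 7.45 CPM without guides, from 2.33 to 9.63 CPM with gRNA 4 and from 2.70 to 5.77 CPM with All gRNA, and these groups overlapped. In MDA-MB-231 it ran from 10.9 to 13.8 CPM without guides, from 7.78 to 13.5 CPM in set 1 and from 4.85 to 15.5 CPM in set 2. Neither set passed the moderated test (adjusted p = 0.791 and 0.246). WNT5A did differ between the wild type SUM159 libraries of run 1, at 1.93, 1.31 and 4.89 CPM, and run 2, at 15.8, 15.6 and 16.8 CPM. The log2 difference was 2.79 (SE 0.468, TREAT adjusted p = 0.0197). The labels do not say that the runs share RNA, so sequencing run and culture cannot be told apart. TREAT called 1 of the members between the runs, WNT5A, against 6.47% of all genes, and the call is lost without wild type run 1 replicate 1 or replicate 2 (adjusted p = 0.0949 and 0.122). The moderated test called 5 of 8, WNT5A, LEF1, AXIN2, ROR1 and WNT7B, against 58.8%, and the calls of ROR1 and WNT7B are lost without run 1 replicate 1 (adjusted p = 0.0902 and 0.172) and in further such fits.

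WNT7A (ENSG00000154764, chr3:13816258-13880071, minus strand), the closest relative of WNT7B, never exceeded 3.92 counts in a library. Its highest group mean was 0.146 CPM, and the set 2 libraries held no count, which allows up to 3 counts each. No direction is given for it.

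ROR1 (ENSG00000185483, chr1:63774017-64181498, plus strand), a receptor for WNT5A, moved in opposite directions in the lines and sets. In SUM159 it stepped down from 50.1, 50.4 and 43.96 CPM in wild type of run 1 to 25.0, 26.5 and 23.8 CPM in No gRNA, and to 16.8, 12.6 and 12.3 CPM with gRNA 4 and 17.9, 16.1 and 17.8 CPM with All gRNA. Between wild type and No gRNA it fell by 0.95 on the log2 scale (SE 0.102, moderated adjusted p = 2.0e-05, TREAT adjusted p = 1). It was the 1 of 8 members that the moderated limma test called there, against 42.9% of all genes. TREAT called 0 of the 8, against 1.53%, with 0 at an unadjusted TREAT p under 0.05, and edgeR and DESeq2 called 2 each. Against No gRNA the further difference, given as a description, was -0.87 (SE 0.126) with gRNA 4 and -0.54 (SE 0.120) with All gRNA.

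MDA-MB-231 cells showed no such step in ROR1, with 50.0, 40.8 and 42.0 CPM in wild type and 40.9, 48.7 and 39.3 CPM in No gRNA. Set 1 held 36.1, 36.5 and 38.3 CPM, below every No gRNA library, but the difference did not pass the moderated test (log2 -0.21, SE 0.116, adjusted p = 0.187). Set 2 held 50.7, 62.6 and 58.5 CPM and rose by 0.44 on the log2 scale (SE 0.107, moderated adjusted p = 0.00487). The sets differed from each other by 0.64 (SE 0.112, moderated adjusted p = 5.2e-04), with set 2 higher in every library.

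**Figure D3:**
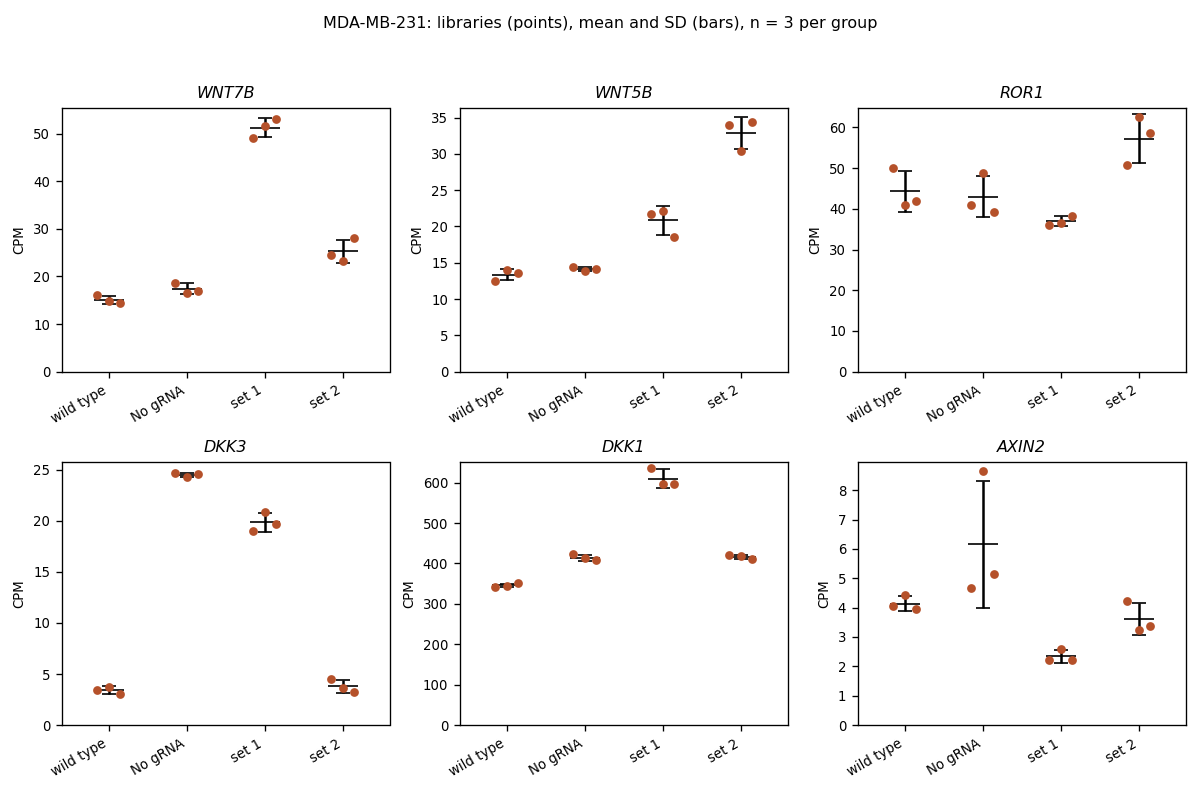
CPM of 6 WNT genes in MDA-MB-231 cells, with libraries as points and the mean and SD of 3 libraries as bars, on axes from 0. WNT7B is highest in set 1, WNT5B and ROR1 in set 2, and DKK3 is near 24.5 CPM in No gRNA cells and near 3.43 and 3.80 CPM in wild type and set 2.

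The antagonists divided the lines most sharply. DKK1 (ENSG00000107984, chr10:52314281-52318042, plus strand), whose promoter is printed above, held 342, 345 and 351 CPM in wild type MDA-MB-231 cells and 2.18, 1.37 and 1.03 CPM in wild type SUM159 cells of the same run, a difference of 7.86 on the log2 scale (SE 0.224, TREAT adjusted p = 8.2e-07). Within MDA-MB-231 the No gRNA libraries were higher, at 423, 413 and 408 CPM (log2 0.21, moderated adjusted p = 2.3e-04). It rose further in set 1, to 637, 597 and 597 CPM (log2 0.56, SE 0.0294, moderated adjusted p = 8.0e-08), and set 2 held 421, 418 and 411 CPM, overlapping No gRNA (log2 0.03, adjusted p = 0.42). None of these changes within the line passed TREAT. In SUM159 all 15 libraries lay between 0.428 and 2.18 CPM.

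DKK3 (ENSG00000050165, chr11:11956207-12009769, minus strand) was high in SUM159 and lower in targeted than in No gRNA cells of both lines. In SUM159 it held 175, 168 and 174 CPM without guides, 109, 119 and 122 CPM with gRNA 4, and 106, 112 and 114 CPM with All gRNA. Wild type libraries held 150, 159 and 168 CPM in run 1, so every targeted library was below every control library. The difference from No gRNA, as a description, was -0.57 (SE 0.0592) with gRNA 4 and -0.64 (SE 0.0592) with All gRNA on the log2 scale.

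In MDA-MB-231 the DKK3 result depended on the control. Wild type libraries held 3.45, 3.78 and 3.07 CPM, No gRNA libraries 24.7, 24.3 and 24.6 CPM, set 1 19.04, 20.8 and 19.7 CPM, and set 2 4.52, 3.67 and 3.21 CPM. The transduced cells without a guide were thus 6.87-fold above wild type (log2 2.78, SE 0.127, TREAT adjusted p = 2.3e-06), and TREAT called 1 of the 9 members there, DKK3, against 3.6% of all genes. The moderated test called 2 of the 9, DKK3 and DKK1, against 53.8%. Set 2 fell by 2.67 against No gRNA (SE 0.124, TREAT adjusted p = 3.0e-06) and by 2.37 against set 1 (SE 0.127, TREAT adjusted p = 2.4e-05), the 1 member that TREAT called between the sets (3.07% of all genes). The moderated test called 6 of 9 members between the sets, against 51.5%. Against wild type, however, set 2 differed by 0.11 (moderated adjusted p = 0.619) and its libraries overlapped the wild type ones. Set 1 fell slightly against No gRNA (log2 -0.30, SE 0.0806, moderated adjusted p = 0.0129) and was 2.48 above wild type (TREAT adjusted p = 5.8e-06).

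**Figure D4:**
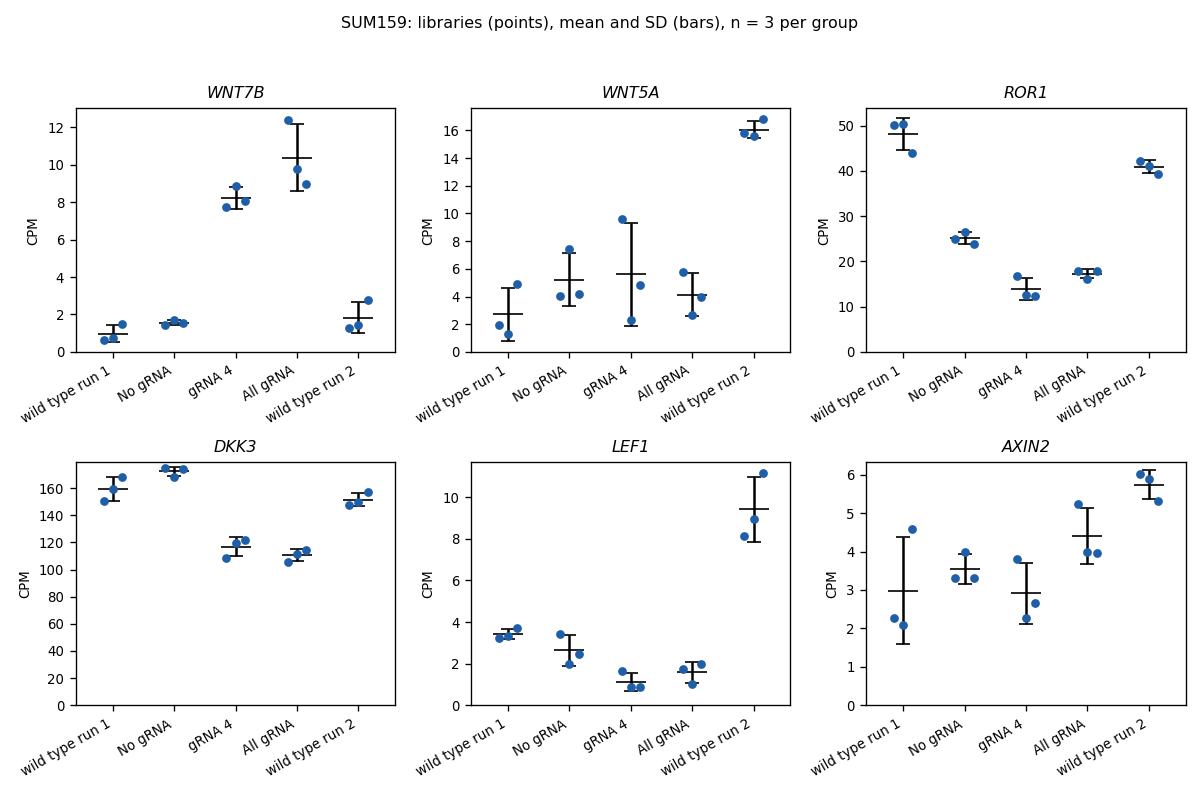
CPM of 6 WNT genes in SUM159 cells, with libraries as points and the mean and SD of 3 libraries as bars, on axes from 0. WNT7B is higher and DKK3, ROR1 and LEF1 are lower in both targeted groups than in No gRNA cells, and WNT5A, LEF1 and AXIN2 differ between the wild type groups of run 1 and run 2.

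The nuclear and feedback genes were expressed at low levels. AXIN2 (ENSG00000168646, chr17:65528563-65561648, minus strand), a scaffold of the beta-catenin destruction complex that WNT signalling induces, held 4.68, 8.64 and 5.15 CPM in MDA-MB-231 No gRNA cells, 2.20, 2.61 and 2.21 CPM in set 1 and 4.24, 3.24 and 3.38 CPM in set 2. On the log2 scale it fell by 1.33 in set 1 (SE 0.260, moderated adjusted p = 0.00193) and by 0.69 in set 2 (SE 0.230, moderated adjusted p = 0.0249), neither passing TREAT. The set 2 call is lost without No gRNA replicate 2, the library at 8.64 CPM (log2 -0.41, moderated adjusted p = 0.0601). It is also lost without set 2 replicate 2 or 3 (adjusted p = 0.0871 and 0.0724). Wild type MDA-MB-231 libraries held 4.04, 4.43 and 3.95 CPM of AXIN2, above every set 1 library and overlapping set 2. With wild type as the control, the moderated test called 0 members lower in set 2, so the set 2 fall depended on the control. In SUM159 both targeted groups overlapped No gRNA in AXIN2, with 3.32, 3.98 and 3.32 CPM without guides, 3.80, 2.27 and 2.67 CPM with gRNA 4 and 5.25, 3.99 and 3.98 CPM with All gRNA. Every All gRNA library was above every gRNA 4 library, a difference of 0.62 on the log2 scale that did not pass the moderated test (adjusted p = 0.44).

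LEF1 (ENSG00000138795, chr4:108047545-108168956, minus strand), a DNA-binding partner of beta-catenin, held 3.45, 2.01 and 2.48 CPM in SUM159 No gRNA cells, 1.63, 0.874 and 0.874 CPM with gRNA 4 and 1.74, 1.01 and 2.00 CPM with All gRNA. Both targeted groups lay below No gRNA, by 1.25 (SE 0.332) and 0.75 (SE 0.302) on the log2 scale, as a description. The wild type SUM159 libraries also differed between runs, with 3.22, 3.35 and 3.71 CPM in run 1 and 8.15, 8.95 and 11.2 CPM in run 2 (log2 1.44, SE 0.208, moderated adjusted p = 4.4e-05). In MDA-MB-231 all 12 libraries lay between 8.35 and 12.3 CPM and neither set passed the moderated test (adjusted p = 0.662 and 0.917).

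TCF7 (ENSG00000081059, chr5:134114681-134151865, plus strand), the related factor known as TCF1, held 7.43 to 8.56 CPM in MDA-MB-231 No gRNA cells, 8.21, 13.2 and 11.5 CPM in set 1 and 6.57 to 7.62 CPM in set 2. Neither set passed the moderated test against No gRNA (adjusted p = 0.0692 and 0.382), while set 2 lay below set 1 (log2 -0.60, SE 0.170, moderated adjusted p = 0.0116), a call lost without set 1 replicate 2 (adjusted p = 0.0554). In SUM159 its libraries ran from 0.855 to 3.84 CPM and the targeted groups overlapped No gRNA.

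Between the lines, compared in wild type cells of run 2, TREAT called 5 of the 9 members tested, against 29.1% of all 15110 genes. DKK1, WNT5B, WNT7B and TCF7 were higher in MDA-MB-231, by 7.86, 5.34, 3.11 and 2.13 on the log2 scale, and DKK3 was lower by 5.46 (TREAT adjusted p from 5.5e-07 for DKK3 to 0.0333 for TCF7). WNT5A was lower in MDA-MB-231 by 1.08 (moderated adjusted p = 1.8e-04, TREAT adjusted p = 0.68). The moderated test called 7 of the 9, against 75.5% of all genes, and ROR1 and LEF1 did not pass either test. The TCF7 call is lost on leaving out any library but SUM159 run 2 replicate 3 (TREAT adjusted p from 0.0553 to 0.0933).

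Genes can be set side by side only per length of transcript. Of 19 ligand genes, 11 exceeded 3 counts in at least 1 library of SUM159 and 11 did so in MDA-MB-231. In wild type MDA-MB-231 cells WNT5B was the highest ligand at 5.98 CPM per kb, ahead of WNT7B at 3.82, WNT5A at 1.31 and WNT10B at 1.26. In wild type SUM159 cells of run 2 the order was WNT10B at 2.83 CPM per kb and WNT5A at 2.75, then WNT3 at 0.927 and WNT7B at 0.465. Averaged over all groups of a line, WNT10B had the highest mean per kb of the ligands in SUM159 and WNT5B in MDA-MB-231, but the order was not the same in every group. In SUM159 WNT7B stood above WNT10B with gRNA 4 (2.08 against 1.63 CPM per kb) and with All gRNA (2.63 against 1.42), and in set 1 of MDA-MB-231 it stood above WNT5B (12.99 against 9.30).

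**Figure D5:**
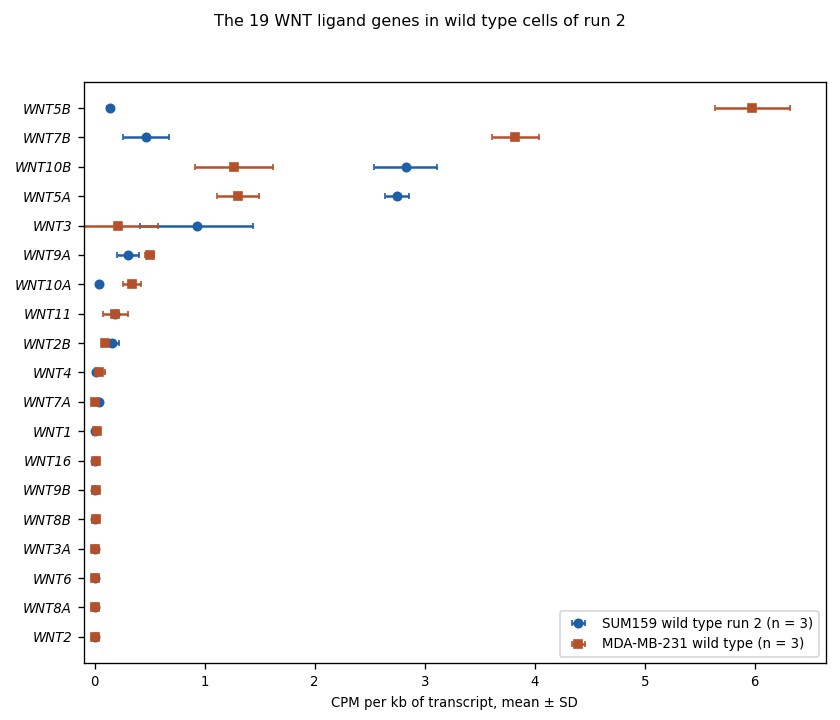
CPM per kb of transcript (mean and SD of 3 libraries) of the 19 WNT ligand genes in wild type cells of run 2. WNT5B at 5.98 and WNT7B at 3.82 lead in MDA-MB-231, and WNT10B at 2.83 and WNT5A at 2.75 lead in SUM159.

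The other roles of the pathway gave the setting of these ligands. WLS, the carrier that brings WNT proteins to the cell surface, averaged 79.6 CPM per kb over the SUM159 groups and 28.2 over the MDA-MB-231 groups. Among receptors and coreceptors the highest mean per kb was that of PTK7 in MDA-MB-231 (52.5) and of RYK in SUM159 (31.5), where PTK7 stood above RYK in some groups, No gRNA among them (32.8 against 32.6), and in the mean over the groups when the longest transcripts are used. Among antagonists it was that of DKK1 in MDA-MB-231 (247.6) and DKK3 in SUM159 (56.2), the latter falling to 14.9 when the longest DKK3 transcript, 9549 bases instead of 2525, is used, and TRABD2A is then the highest antagonist of that line. CTNNB1, which encodes beta-catenin, led the cytoplasmic transducers of MDA-MB-231 at 104.3 CPM per kb.

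A list of 102 pathway genes, the 10 members included, had 69 genes past the count filter in MDA-MB-231. In set 1 TREAT called 3 of the 69, WNT7B and WNT9A higher and SOST lower, and the moderated test called 16 higher and 14 lower, 43.5% of those tested beside 37.8% of all genes. In set 2 TREAT called 3, DKK3, ADGRA2 and SOST, all lower, and the moderated test called 20 higher and 14 lower, 49.3% beside 52.4%. The median change of the list was 0.03 in set 1 and 0.07 in set 2 on the log2 scale, beside -0.01 over all genes in both.

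By role, 3 of the 8 ligands tested rose in set 1 by the moderated test and none fell, 37.5% of them beside 37.8% of all genes. The median over the 8 was 1.03 on the log2 scale, beside -0.01 over all genes. That median includes ligands that did not pass the test. In set 2, 3 rose and 1 fell, 50% beside 52.4% of all genes, with a median of 0.52. Of 15 receptors and coreceptors tested, 2 rose and 7 fell in set 1 (60%), and 8 rose and 4 fell in set 2 (80%). Of 11 nuclear factors tested, 4 rose and none fell in set 1 (36.4%), and none of the 11 passed in set 2. Cytoplasmic transducers were mixed, with 3 of 12 higher and 2 lower in set 1, and 1 higher and 4 lower in set 2, 41.7% in each. Of 9 feedback targets tested, 2 rose and 1 fell in set 1 (33.3%), and 3 rose and 2 fell in set 2 (55.6%). Antagonists, the R-spondin axis and the planar cell polarity branch had shares of 50%, 50% and 22.2% in set 1. In set 2 their shares were 50%, 75% and 55.6%. The shares of ligands in both sets and of nuclear factors in set 1 were thus close to those of all genes. Receptors lay above all genes in both sets and nuclear factors below in set 2, and no role was tested as a set.

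WNT9A, another WNT ligand, was, like WNT7B, highest in set 1 of MDA-MB-231. It averaged 2.00 CPM in wild type MDA-MB-231, 2.44 CPM in No gRNA, 11.8 CPM in set 1 and 3.35 CPM in set 2. The rise in set 1 was 4.83-fold (log2 2.27, SE 0.135, TREAT adjusted p = 1.2e-04), that in set 2 was 0.47 on the log2 scale (moderated adjusted p = 0.0286, lost without any of 4 libraries, No gRNA replicates 1 and 2 and set 2 replicates 1 and 3), and set 2 lay below set 1 by 1.81 (TREAT adjusted p = 0.00161). In SUM159 it averaged 1.27 CPM without guides, 2.35 CPM with gRNA 4 and 2.21 CPM with All gRNA, where its libraries overlapped No gRNA. Neither SUM159 difference passed the moderated test (adjusted p = 0.0694 and 0.119).

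SOST, which encodes the LRP antagonist sclerostin, and ADGRA2, a coreceptor for WNT7 ligands, were, like DKK3, higher in No gRNA than in wild type MDA-MB-231 cells and low in set 2. Unlike DKK3, SOST was near 0 in set 1 as well. SOST averaged 1.13 CPM in No gRNA libraries, was at or below 3 counts in every library of wild type, set 1 and set 2, and was thus at least 6.10-fold lower in set 1 and at least 6.27-fold lower in set 2 against a floor of 3 counts per library (TREAT adjusted p = 0.00143 and 0.00878). ADGRA2 averaged 0.872 CPM in wild type, 7.37 CPM in No gRNA, 2.96 CPM in set 1 and 1.06 CPM in set 2, a fall of 2.68 on the log2 scale in set 2 (SE 0.464, TREAT adjusted p = 0.048). Without set 2 replicate 1 neither the SOST nor the ADGRA2 fall passed TREAT (adjusted p = 0.0609 and 0.213), and the ADGRA2 fall did not pass without replicate 2 or 3 or No gRNA replicate 1 either. Both genes were also called higher in No gRNA than in wild type cells (TREAT adjusted p = 0.0353 for SOST and 0.0357 for ADGRA2), calls that are lost without any 1 of the wild type libraries (adjusted p from 0.0985 to 0.19), and for SOST also without No gRNA replicate 1 or 3 (adjusted p = 0.0878 and 0.093). In SUM159 run 1, ADGRA2 averaged 7.20 CPM in wild type and 25.3 CPM in No gRNA (log2 1.92, moderated adjusted p = 2.2e-04). It averaged 7.24 CPM with gRNA 4 and 8.79 CPM with All gRNA, given as a description. Wild type SUM159 cells of run 2 averaged 52.6 CPM, above run 1 by 2.97 on the log2 scale (TREAT adjusted p = 8.8e-05).

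Across the 9 group means, the genes whose log2 CPM was most like that of WNT7B among 17319 genes were MPZL2, ABCG4, ALS2CL, PPP1R3B and SPINT2, with Pearson's r from 0.966 to 0.962. These are descriptions over 9 points that share line and run. For WNT7B, DKK1, DKK3, WNT5B and TCF7 the group means of the lines did not overlap, and much of the spread lies between the lines. For ROR1, WNT5A and AXIN2 the group means of the lines interleaved. The genes most like DKK3 were NUPR1 (r = 0.996) and FAM86JP (r = 0.995), those most like DKK1 TRAPPC1 and MYO5C (both r = 0.999), and those most like WNT5B ARTN and VWA1 (both r = 0.997). For ROR1 they were NSF and LHFPL6 (r = 0.940 and 0.939), for WNT5A RNH1 and EXOSC5 (r = 0.970 and 0.967), and for TCF7 TAF1B and PGM5P2 (r = 0.994 and 0.991). AXIN2 had no gene above r = 0.907, that of PCDHGA1, followed by PYROXD2 at 0.865. LEF1 was most like the unnamed gene ENSG00000267058 (r = 0.979) and TTC27 (r = 0.974).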

How the data were processed

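The authors quantified 50 bp single-end reads with Salmon against GRCh38 and imported them with tximport. The deposited estimated counts per gene are labelled length-scaled TPM, that is, abundances scaled back to counts by transcript length and library size. The Salmon version, annotation and strand setting are not given in the sources used here, so reads of antisense genes may be shared. Estimated counts as deposited were scaled by TMM to CPM, and per kb values used the GENCODE v44 canonical transcript. Of 57165 Ensembl identifiers, 56347 matched a symbol.

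Differences were fitted with voom in limma 3.58.1 (R 4.3.3; filterByExpr, minimum count 10), within SUM159 run 1, within MDA-MB-231, over all SUM159 wild type and transduced libraries for the run comparison, and over wild type libraries of run 2 for the lines. TREAT, which the study's methods name without a threshold, was the main test, here at a log2 fold change of 1, and limma's moderated test against 0 the second, both Benjamini-Hochberg adjusted over all genes tested (threshold 0.05). edgeR 4.0.16 and DESeq2 1.42.0 were alternatives, on rounded counts. The scripts were tested on simulated data. With 3 libraries per group, p-values measure the spread between these libraries.

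Same-numbered libraries of different groups did not deviate together, and no pairing was used. The members, the pathway list and the tests were chosen with earlier results of these data known. Named pathway genes are those called by TREAT in either MDA-MB-231 set and the highest gene per kb of each role in each line.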

Additional observations from a re-analysis of the deposited data

Results flagged for a closer look

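Results are given here because an effect differed between groups. DKK3 differed between the targeted MDA-MB-231 sets, by -2.37 on the log2 scale for set 2 against set 1, as tested above. DKK1 was below wild type in every SUM159 No gRNA library (-1.20) and above wild type in every MDA-MB-231 No gRNA library (0.21), and this difference between the lines was not tested. The SUM159 value rests on fewer than 2.2 CPM and did not pass the moderated test (adjusted p = 0.0523).

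ROR1 was below No gRNA in every targeted SUM159 library (-0.54 with All gRNA and -0.87 with gRNA 4) and above it in every set 2 library of MDA-MB-231 (0.44), a difference between lines that was not tested. Within MDA-MB-231, every set 1 library was below No gRNA (-0.21) and every set 2 library above it, and the difference between the sets is the tested one given above. Line and sequencing run cannot be told apart in these comparisons of targeted cells.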

How the results depend on the processing

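The 38 log2 differences of members that passed either test kept their direction under every alternative that kept the stated control (304 of 304 values). These alternatives refit the same libraries for differences already called, so a kept direction was nearly fixed in advance and adds no support. Some of the 38 are SUM159 values of the contrast that chose the list, and they remain a description. The moderated test takes its fold change from the same fit as TREAT, so its values could not differ in direction. Both edgeR tests also share a fit. The LEF1 difference with All gRNA, given as a description, passed neither test and is not among the 38. With wild type as the control, the sign of DKK3 turned in set 1 (2.48) and set 2 (0.11) of MDA-MB-231, and the other values kept their direction. Counts by TREAT depended mostly on the test. In the order SUM159 All gRNA and gRNA 4 against No gRNA, MDA-MB-231 set 1 and set 2 against No gRNA, No gRNA against wild type in SUM159 and in MDA-MB-231, set 2 against set 1, and SUM159 run 2 against run 1, TREAT called 1, 1, 1, 1, 0, 1, 1 and 1 members, limma's moderated test 3, 4, 5, 5, 1, 2, 6 and 5, the quasi-likelihood test of edgeR 3, 4, 4, 5, 2, 2, 7 and 4, and DESeq2 3, 4, 5, 5, 2, 2, 6 and 5. In the same order TREAT called 1, 1, 3, 3, 0, 3, 2 and 9 pathway genes, the moderated test 15, 16, 30, 34, 22, 29, 32 and 39, edgeR 16, 16, 30, 34, 25, 29, 33 and 40, and DESeq2 14, 16, 32, 32, 26, 31, 32 and 41. Between wild type lines TREAT called 28 pathway genes, the moderated test 59, edgeR 57 and DESeq2 56. The shares of all genes that TREAT and the moderated test called are given above. Of all genes, edgeR called 1677, 1707, 5813, 8163, 6429, 8318, 8120 and 9047 in the same order, and 11304 between wild type lines. DESeq2 called 2123, 2105, 5952, 8082, 6501, 8180, 8030 and 8952, and 11070 between wild type lines. The genes tested were 15147 in SUM159, 15721 in MDA-MB-231, 15460 between runs and 15110 between lines. Nothing is read from these counts. Between All gRNA and gRNA 4, DESeq2 called 3 pathway genes and edgeR 1, against 0, beside 353 and 143 of all genes. edgeR's glmTreat at 1 called 2 members in set 2 (WNT5B added, adjusted p = 0.037), and 5 pathway genes in set 2, 2 in SUM159 No gRNA against wild type and 4 between the sets. Of all genes it called 929, 363 and 741 in these comparisons. Without the low count filter 2 members were called between runs, and 1 pathway gene in SUM159 No gRNA against wild type.

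With wild type as the control, TREAT called 2, 2, 2 and 0 members and 2, 5, 5 and 0 pathway genes in the 4 targeted comparisons. Of all genes it called 349, 373, 1323 and 227. The moderated test with that control, an alternative chosen after seeing the data, called 4, 5, 7 and 4 members and 27, 30, 38 and 26 pathway genes. Its calls over all genes were 7384 and 7096 of 15147 in SUM159, and 9348 and 5709 of 15721 in MDA-MB-231. Each comparison tested 69 pathway genes, and nothing is read from these counts. With that control the SUM159 value of WNT7B was 3.47 for the pool and 3.14 for the single guide, and that of ROR1 -1.49 and -1.82.

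Same-numbered libraries did not deviate together, so the numbers are not taken as pairs. A fit with the replicate block called 0 members and 0 pathway genes with gRNA 4, where WNT7B lost its TREAT call, and 4 members between the wild type lines, where TCF7 did (adjusted p = 0.104), and it moved no other count of members. Leaving out 1 library at a time gave 0 to 1 members with All gRNA, 0 to 0 with gRNA 4, 0 to 1 between runs and 4 to 5 between lines. For pathway genes the ranges were 0 to 1, 0 to 0, 1 to 3 in set 2, 0 to 1 for SUM159 No gRNA and 1 to 3 for MDA-MB-231 No gRNA against wild type. WNT7B in set 1 and DKK3 in set 2 were called in all 6 such fits each. Low counts limit DKK1, WNT5B, WNT7A, LEF1 and TCF7 in SUM159. They also limit WNT7B in the SUM159 control cells, where the No gRNA libraries held 25.0 to 28.7 counts.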
